A study of Mus musculus with 12 samples.

Results

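The genes of the cytosolic ribosomal proteins were described in C2C12, an established mouse myoblast line whose cells fuse into multinucleated myotubes when serum is changed. Rows of the deposited gene tables were taken as members when the gene name had the form of an Rpl, Rps, Rplp or Rpsa gene, with at most 2 trailing letters or digits and no pseudogene suffix. The rule took 89 of 78298 genes, 53 of the large and 36 of the small subunit. Names of this form also take in Rps3a2 and Rps3a3, whose reads can be shared with Rps3a1, and leave out others such as Fau, Rpl36al and Rack1, which are given separately.

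The cytosolic ribosome of mouse cells is built from ribosomal RNA and a set of proteins named Rpl (large, 60S subunit) and Rps (small, 40S subunit), most of them encoded by a single expressed gene each. Their mRNAs begin with a run of pyrimidines, the TOP (terminal oligopyrimidine) motif, through which mTORC1 controls their translation together, and they are among the most abundant mRNAs of most cell types. In muscle, ribosome content is a major determinant of the capacity for protein synthesis and of fibre growth, and a few members have paralogs that replace them in given tissues, such as Rpl3l, the form of Rpl3 found in heart and skeletal muscle.

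Wild-type C2C12 cells (WT, labelled replicates 1 to 6) were set against a C2C12 line with a genetically encoded calcium indicator (RGECO, labelled replicates 1 to 6). All cultures of both lines were kept on methacrylated gelatin, a crosslinked hydrogel, and went through 14 days of differentiation, in medium that held 10% inactivated horse serum, IGF-1 at 50 ng/ml and aminocaproic acid, a fibrinolysis inhibitor, at 1 mg/ml. Poly(A)-selected RNA was amplified with 14 PCR cycles and sequenced as paired reads of 50 bases. The sources used here do not give whether the RGECO line is a single clone, what promoter drives the indicator or whether replicates are separate cultures. The p-values therefore reflect only the spread among these libraries, which may be technical.

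RGECO replicate 4 held 825 counts in 252 genes, 1 of them from a member, and was left out. The other 11 libraries held 5881622 to 11926220 counts. In those 11 libraries the labelled cell type carried its markers. The summed TPM (transcripts per 1000000, a level per transcript length) of 10 skeletal muscle markers ran from 13503 to 16113 in WT and from 16191 to 21935 in RGECO. These ranges did not overlap, by only 16113 against 16191 TPM. On counts, 2 of the 10 passed at adjusted p 0.05 in edgeR, 1 in each direction, where 8.35% of all genes tested did. The median log2 fold change of the 10 was 0.08, with 3 below 0. Of the muscle markers, Myh3, embryonic myosin heavy chain, rose (log2 fold change 0.54 ± 0.13 SE) and Myod1, a myoblast determination factor, fell (-0.51 ± 0.13). Their adjusted p was 0.0202 and 0.0277 (edgeR quasi-likelihood test, Benjamini-Hochberg). On log2(TPM + 1) in limma, which called fewer of all genes, 3 of the 10 were higher and 0 lower. With all 12 libraries in edgeR 0 were called. The Myod1 call was thus lost in both. Summed TPM of 6 markers of cycling cells ran from 115 to 181 in WT and from 103 to 133 in RGECO, and 1 of the 6, the cyclin gene Ccnb1, fell (log2 fold change -0.84 ± 0.17, adjusted p = 0.0066 in edgeR). The summed TPM of 5 fibroblast markers ran from 462 to 759 in WT and from 360 to 438 in RGECO, and 3 of the 5 passed in edgeR in different directions. Col1a1, a chain of type I collagen, and Pdgfrb, a growth factor receptor, fell (-1.98 ± 0.23 and -1.59 ± 0.14, adjusted p = 7.2e-05 and 1.0e-05), while Dcn, a matrix proteoglycan, rose (0.96 ± 0.17, adjusted p = 0.0019). Summed markers of endothelial cells, leukocytes, adipocytes and neurons stayed at or below 1.91 TPM in every library and those of erythroid cells at or below 9.78 TPM. The part of the muscle, cycling and fibroblast markers in the results on ribosomal protein genes was not tested, and in bulk RNA fewer cells of a type cannot be told apart from less RNA per cell.

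To show what the motif at their starts looks like, RefSeq promoter windows of GRCm38.p6, from 250 bases before to 50 after each annotated start, were found for 64 members with 76 starts. The 10 stretches below run from 50 bases before the start to 20 bases after it, 5′ to 3′ on the coding strand. They were chosen as an abundant member of each subunit (Rps12, Rpl41), the members past the test between the lines (Rpl22 with its 2 starts, Rpl7l1), and the paralogs or partners with a RefSeq start that the results turn on (Rps27, Rps27l, Rpl22l1, Rpl3l with its 2 starts). Capitals mark a run of at least 8 C or T within 20 bases before to 20 after the start or the core CCGGAAG of sites bound by ETS factors such as GABP.
Rps12, chr10:23787190-23787259, minus strand: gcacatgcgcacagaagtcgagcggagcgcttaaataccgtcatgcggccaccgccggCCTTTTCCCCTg
Rpl41, chr10:128549149-128549218, minus strand: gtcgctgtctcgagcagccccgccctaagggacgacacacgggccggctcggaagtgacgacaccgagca
Rps27, chr3:90213629-90213698, minus strand: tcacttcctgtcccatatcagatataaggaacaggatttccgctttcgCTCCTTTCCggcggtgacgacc
Rps27l, chr9:66946036-66946105, plus strand: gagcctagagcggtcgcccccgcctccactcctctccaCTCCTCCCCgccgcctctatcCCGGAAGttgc
Rpl22, chr4:152324386-152324455, plus strand: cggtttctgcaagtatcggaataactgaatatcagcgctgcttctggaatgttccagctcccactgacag
Rpl22, chr4:152325676-152325745, plus strand: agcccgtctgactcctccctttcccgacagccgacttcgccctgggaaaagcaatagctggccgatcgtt
Rpl22l1, chr3:28805458-28805527, plus strand: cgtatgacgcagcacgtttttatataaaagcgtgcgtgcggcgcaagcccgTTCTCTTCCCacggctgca
Rpl7l1, chr17:46782637-46782706, minus strand: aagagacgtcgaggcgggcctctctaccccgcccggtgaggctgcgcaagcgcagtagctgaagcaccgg
Rpl3l, chr17:24727776-24727845, plus strand: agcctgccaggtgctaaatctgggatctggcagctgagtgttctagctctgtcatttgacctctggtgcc
Rpl3l, chr17:24732635-24732704, plus strand: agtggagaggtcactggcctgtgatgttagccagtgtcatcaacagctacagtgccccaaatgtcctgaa

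In Rps12, Rps27 and Rpl22l1 a pyrimidine run lay across or just after the annotated start, and in Rps27l it lay just before it. The stretches of Rpl41, Rpl22, Rpl7l1 and Rpl3l held neither feature as so defined. Runs of at least 8 C or T that began farther before the start, left in lower case, also stand in the second Rpl22 stretch and in that of Rps27l. An annotated start can lie some bases from the start a cell uses, and a match or its lack is a description of these letters only. Over all windows, a run of at least 8 C or T within 20 bases before to 20 after the start was found at 32 of the 76 member starts (42.1%) and at 16% of the 32851 starts in the RefSeq table. The core CCGGAAG, searched on both strands of the 300 bases, was found at 27 member starts (35.5%) against 8.86% of all starts. CTTTCC on the coding strand was found at 28 (36.8%) against 14.1%, and AAGATGGC, the core bound by YY1, on both strands at 8 (10.5%) against 2.75%. TATAAA on both strands stood at 8 member starts (10.5%) against 13.6% of all starts, and CACGTG, an E-box of the kind MYC binds, at 8 (10.5%) against 7.15%. CTTTCC can lie inside a pyrimidine run, so those counts overlap.

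Of the 89 members, 85 had a count in at least 1 of the 11 libraries. Rpl10l and Rpl39l, paralogs known from the testis, and Rps4l and Rps12l1 had none. Rpl6l held 0 to 10.1 estimated counts per library and Rpl32l 0 to 3.01, and both failed the filter on low counts. The remaining 83 members, 49 large and 34 small, were tested. Each tested member held at least 22 counts in every one of the 11 libraries, so none passed the filter through 1 line alone.

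The deposited TPM values spanned more than 3 orders of magnitude between members. Of the tested members 39 averaged above 1000 TPM, 41 lay between 100 and 1000 and 3 below 100. The median over members was 951 TPM, with 936 for large and 1131 for small subunit genes. Rpl41, a peptide at the subunit interface, led with a mean of 7814 TPM, and Rps12 with 4504, Rps24 with 3940 and Rps14 with 3099 were also among the 5 highest. The 5 highest genes held 22.9% of all member TPM. In Rpl41 the WT libraries ran from 5671 to 9450 TPM and the RGECO libraries from 5599 to 10379, all above the highest value of Rps12. Rps12 (3764 to 5128) and Rps24 (2451 to 5408) overlapped each other. At the other end stood Rpl3l with a mean of 5.48 TPM, Rpl7l1 with 27.6, Rpl22l1 with 61.7, Rpl21 with 124 and Rpl36a with 164. The first 3 are paralogs, and Rpl21 and Rpl36a are core proteins of the large subunit with many processed copies in the genome, so their counts are uncertain.

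**Figure D1:**
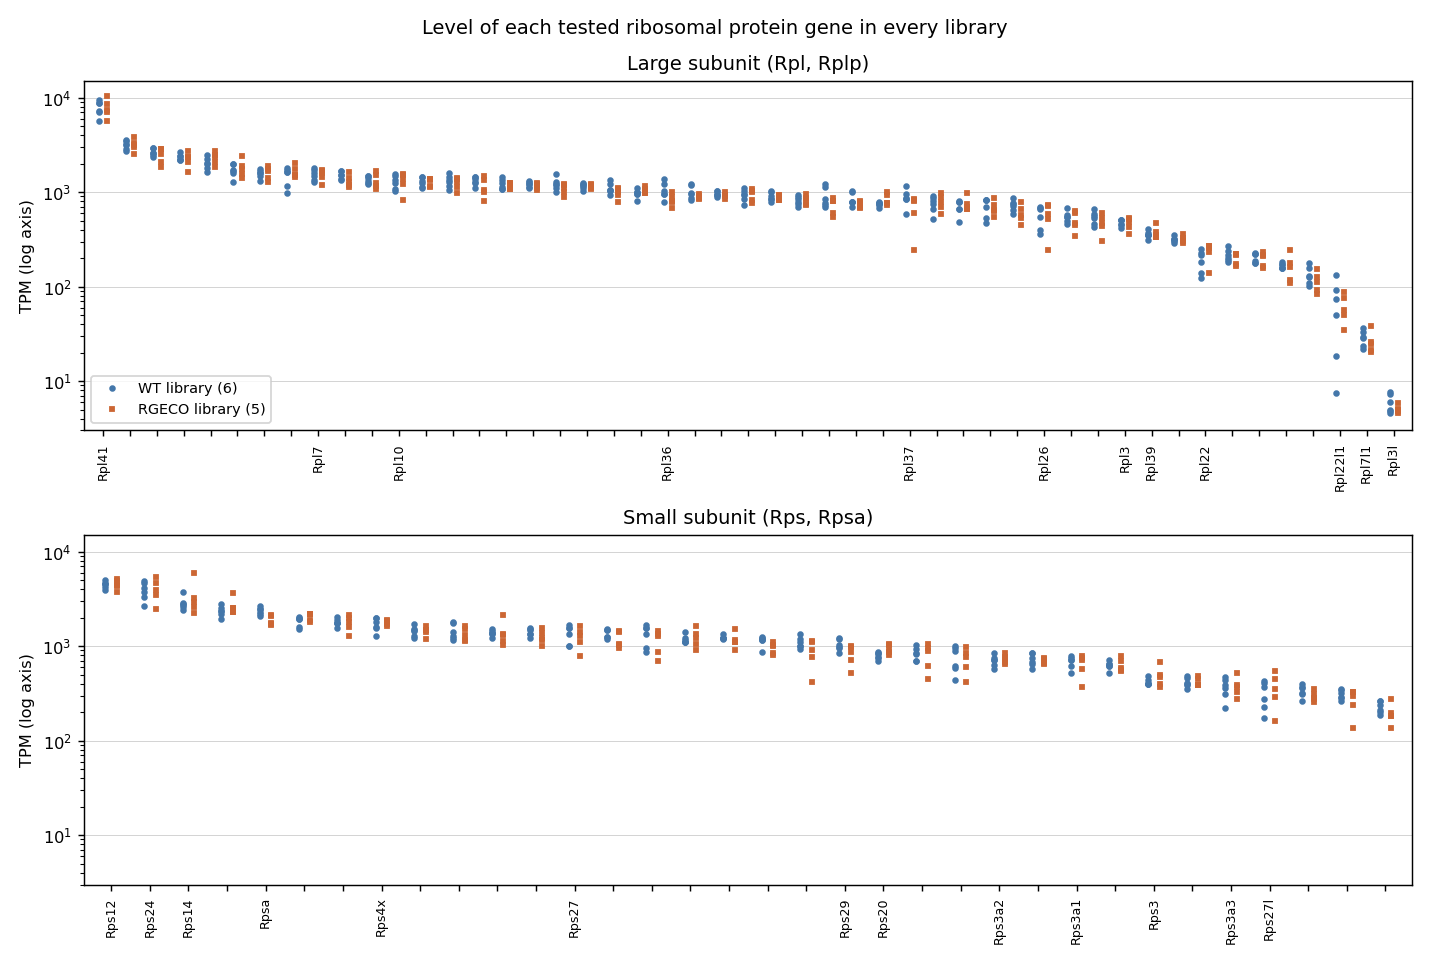
TPM of each of the 83 tested ribosomal protein genes (log axis), with 1 point per library, WT in blue circles and RGECO in orange squares, genes ordered by mean within each subunit and most of those named in the text labelled. Rpl41 and Rps12 lead their subunits at means of 7814 and 4504 TPM. The means of Rpl22l1, Rpl7l1 and Rpl3l fall below 100 TPM, though Rpl22l1 reaches 133 TPM in WT.

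Together the members took 9.92% ± 0.376 (SD, n = 6) of all TPM in WT and 9.71% ± 0.727 (n = 5) in RGECO. WT libraries ran from 9.64% to 10.4%, and RGECO libraries from 9.11% to 10.95%, so the lines overlapped, with the highest and the lowest value both in RGECO. The large subunit genes took 5.50% ± 0.264 in WT and 5.35% ± 0.433 in RGECO, and the small subunit genes 4.42% ± 0.240 and 4.36% ± 0.314. Estimated counts are not corrected for transcript length, and the members' share of them was lower, 4.05% ± 0.449 in WT and 3.59% ± 0.366 in RGECO. The ratio of RGECO to WT was 0.979 on TPM and 0.886 on counts.

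Between the lines, 2 of the 83 tested members passed the threshold of adjusted p 0.05. Rpl22, an RNA-binding protein on the outer face of the large subunit, rose in RGECO, and Rpl7l1, a homologue of Rpl7, fell. Over all 13318 genes tested, 8.35% passed, 3.42% as higher and 4.93% as lower in RGECO, so the members' 2.41% lay below the background. The median log2 fold change of the members was -0.20, against -0.01 over all genes tested, and 72 of the 83 lay below 0, where 51.5% of all genes did. No p is attached to this median. Fold changes of members ran from -0.57 to 0.35. At an unadjusted p under 0.05, 9 members were lower and 1 was higher, 10 of 83 against 22.1% of all genes. The CPM ranges of the lines did not overlap for 2 members, Rpl22 and Rpl7l1, against 7.97% of all genes.

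The intervals give the size of change that these libraries leave possible. For 79 of the 83 members the 95% interval stayed within a 2-fold change up or down, where it did so for 74.0% of all genes. For 49 members (59.0%) it stayed within 1.5-fold, against 43.3% of all genes. Rps29, Rpl36, Rpl37 and Rpl22l1 were the 4 whose interval reached past 2-fold. On log2(TPM + 1) in limma, the members' median was -0.04 while that of all genes was 0.09, and 57 members lay below 0, with 0 called. Of all genes, 344 were higher and 261 lower on that scale, against 456 and 656 on counts.

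**Figure D2:**
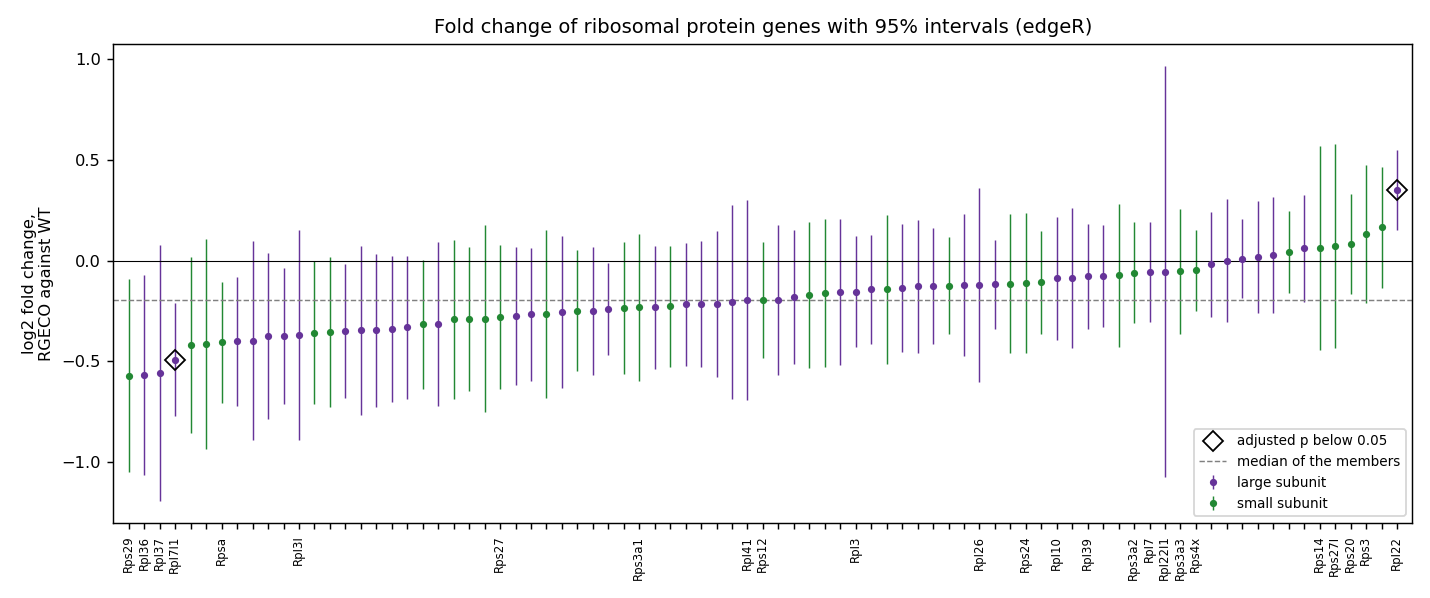
Log2 fold change of RGECO against WT (edgeR, estimated counts) for the 83 tested members, ordered by value, most of those named in the text labelled, with 95% intervals; large subunit in purple and small in green, diamonds marking adjusted p below 0.05 and the dashed line the members' median of -0.20. Rpl7l1 at -0.49 and Rpl22 at 0.35 carry diamonds, and 72 of the 83 points lie below 0.

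Rpl22 binds RNA and is not essential in mice, in which its paralog Rpl22l1 can take its place. Its CPM (counts per 1000000 after TMM scaling) in WT had a lowest value of 139, a median of 159 and a highest of 165. In RGECO replicates 1, 2, 3, 5 and 6 it stood at 191, 199, 178, 226 and 195. Every RGECO library lay above every WT library, with replicate 5 the highest. The means were 155 ± 10.7 (SD, n = 6) and 198 ± 17.6 (n = 5), and the log2 fold change was 0.35 ± 0.09 (SE), with adjusted p = 0.0288 (edgeR quasi-likelihood test, Benjamini-Hochberg). In TPM the lines overlapped, at 190 ± 50.5 and 233 ± 53.7, with 125 to 251 in WT, 141 in RGECO replicate 5 and 231 to 269 in the other RGECO libraries. Replicate 5 thus had the highest CPM and the lowest TPM of its line. The call was lost without RGECO replicate 2 (adjusted p = 0.0575), without RGECO replicate 5 (0.0684) or without WT replicate 3 (0.0577), and on log2(TPM + 1) in limma the fold change was 0.30 with adjusted p = 0.461.

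Rpl7l1 is a homologue of Rpl7 whose role in the mouse is less defined than that of its partner. Its CPM in WT had a lowest value of 36.7, a median of 47.8 and a highest of 54.5. In RGECO it stood at 30.9, 36.0, 36.3, 27.7 and 34.7 in replicates 1, 2, 3, 5 and 6. The ranges did not overlap, by 36.3 against 36.7 CPM. The means were 46.6 ± 6.87 (n = 6) and 33.1 ± 3.74 (n = 5), and it fell by 0.49 ± 0.13 (SE) on the log2 scale, with adjusted p = 0.0285 in edgeR's quasi-likelihood test. In TPM the values were 28.8 ± 5.42 and 26.1 ± 7.25, with ranges of 22.1 to 36.2 and 20.1 to 38.3 that overlapped almost fully, and on log2(TPM + 1) the difference was -0.16 with adjusted p = 0.694 in limma. In edgeR the call was lost without RGECO replicate 1, 2, 5 or 6 (adjusted p = 0.0688, 0.0521, 0.0650 and 0.0565) and without WT replicate 3, 4, 5 or 6 (0.0704, 0.0673, 0.0621 and 0.0549).

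The other members at the low end of the order were Rps29, a zinc-finger protein of the 40S head, and Rpl36 and Rpl37, small proteins of the large subunit. Rps29 had a lowest CPM of 141, a median of 169 and a highest of 307 in WT, and 101, 163, 168, 94.0 and 144 in RGECO. Rpl36 had 113, 166 and 330 in WT and 108, 161, 145, 141 and 110 in RGECO. Rpl37 had 148, 218 and 378 in WT and 132, 217, 227, 72.8 and 204 in RGECO. For all 3 the highest libraries were WT replicates 1 and 2, and the rest of the WT range overlapped RGECO. Their log2 fold changes of -0.57 ± 0.22, -0.57 ± 0.23 and -0.56 ± 0.29 did not pass, with adjusted p = 0.144, 0.162 and 0.298 in edgeR's quasi-likelihood test.

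Among the higher fold changes below Rpl22 were those of Rps3 at the mRNA entry channel and Rps20 of the 40S head, neither of which passed. Rps3 had a lowest CPM of 483, a median of 599 and a highest of 685 in WT, and 564, 667, 541, 981 and 497 in RGECO. RGECO replicate 5 stood above every other library and the remaining libraries overlapped. The log2 fold changes of Rps3 and Rps20 were 0.13 ± 0.16 and 0.08 ± 0.12 (adjusted p = 0.705 and 0.751 in edgeR). Without RGECO replicate 5 that of Rps3 was -0.07.

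In TPM the means of Rpl41, Rps12 and Rps24 were close between the lines. Rpl41 had means of 7840 ± 1436 in WT and 7784 ± 1791 in RGECO, Rps12 of 4501 ± 362 and 4508 ± 530, and Rps24 of 3903 ± 847 and 3984 ± 1124. In each the ranges overlapped. On counts their log2 fold changes lay between -0.11 and -0.20, and none passed, with adjusted p = 0.685 for Rpl41, 0.440 for Rps12 and 0.752 for Rps24 in edgeR. Rps14, a protein of the 40S platform, had TPM means farther apart, at 2851 ± 465 in WT and 3395 ± 1496 in RGECO. Its TPM was 2389 to 3730 in WT and 3220, 2917, 2613, 5991 and 2235 in RGECO, with replicate 5 far above the rest.

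Of the 9 paralogs examined, 6 were tested, with 1 lower (Rpl7l1, 16.7%), 0 higher and a median log2 fold change of -0.06. Of their 8 partners, 1 was higher (Rpl22, 12.5%) and 0 were lower, with a median of -0.08. Each share rests on 1 gene, beside 8.35% of all genes. The median over the 77 tested members that are not paralogs was -0.20, with 1 called (1.30%).

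Rpl3l is the muscle form of Rpl3, which sits at the peptidyl transferase centre. Its CPM in WT replicates 1 and 2 was 8.42 and 7.58, and in the other 4 WT libraries it lay between 4.27 and 5.61. In RGECO it was 4.16, 4.13, 4.61, 3.85 and 5.60, inside or just below the range of those 4. The means were 5.82 ± 1.77 (n = 6) and 4.47 ± 0.69 (n = 5), and the log2 fold change of -0.37 ± 0.24 had adjusted p = 0.421 in edgeR's quasi-likelihood test, so no difference beyond the spread was found. Its TPM lay between 4.57 and 7.58 in all 11 libraries. Rpl3l made up 1.23% ± 0.337 of the summed TPM of Rpl3l and Rpl3 in WT and 1.10% ± 0.215 in RGECO, so nearly all Rpl3-type mRNA in both lines was Rpl3. Rpl3 itself was at 473 ± 69.7 and 425 ± 70.2 CPM (log2 fold change -0.15 ± 0.13, adjusted p = 0.541).

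Rpl22l1, the paralog of Rpl22, varied more between libraries than any other tested member. Its CPM in WT replicates 1 to 6 was 7.09, 3.12, 15.5, 26.9, 20.7 and 34.7. In RGECO it was 13.7, 21.6, 10.4, 15.4 and 25.4. WT replicates 1 and 2 were below all RGECO libraries and WT replicates 4 and 6 above all of them. Its log2 fold change was -0.05 ± 0.47 (adjusted p = 0.968 in edgeR), its TPM ran from 7.53 to 133, and its highest TPM was 17.7 times its lowest, where the median over members was 1.67 times. It made up 21.8% ± 12.1 of the summed TPM of Rpl22l1 and Rpl22 in WT and 20.9% ± 5.61 in RGECO. Its direction was -0.27 to 0.25 on the log2 scale when single libraries were left out and turned positive on TPM, at 0.41 on log2(TPM + 1).

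Rps27l is a paralog of Rps27 that p53 can induce. Its CPM in WT had a lowest value of 61.8, a median of 91.3 and a highest of 105. In RGECO it stood at 76.9, 136, 73.7, 44.6 and 115. RGECO held both the highest library, replicate 2, and the lowest, replicate 5. The log2 fold change was 0.07 ± 0.24 (adjusted p = 0.905 in edgeR), and was -0.12 without RGECO replicate 2. Rps27l made up 18.5% ± 2.26 of the summed TPM of the pair in WT and 21.7% ± 3.65 in RGECO, and Rps27 was at 199 ± 32.9 and 164 ± 43.0 CPM. Rpl7l1 made up 1.86% ± 0.278 and 1.70% ± 0.470 of the summed TPM of Rpl7l1 and Rpl7.

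Rps3a1, Rps3a2 and Rps3a3 are near copies of the gene for a 40S platform protein, so the split of reads between them is uncertain. Their CPM means in WT and RGECO were 469 ± 78.5 and 399 ± 106, 371 ± 46.7 and 356 ± 50.1, and 189 ± 22.6 and 182 ± 44.8. None passed the test, with adjusted p = 0.481, 0.828 and 0.886 in edgeR. The partners of paralogs without a count, Rpl10 at the intersubunit face, Rpl39 in the exit tunnel and Rps4x of the 40S body, had log2 fold changes of -0.09 ± 0.14, -0.08 ± 0.12 and -0.05 ± 0.09 (adjusted p = 0.783, 0.778 and 0.828).

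**Figure D3:**
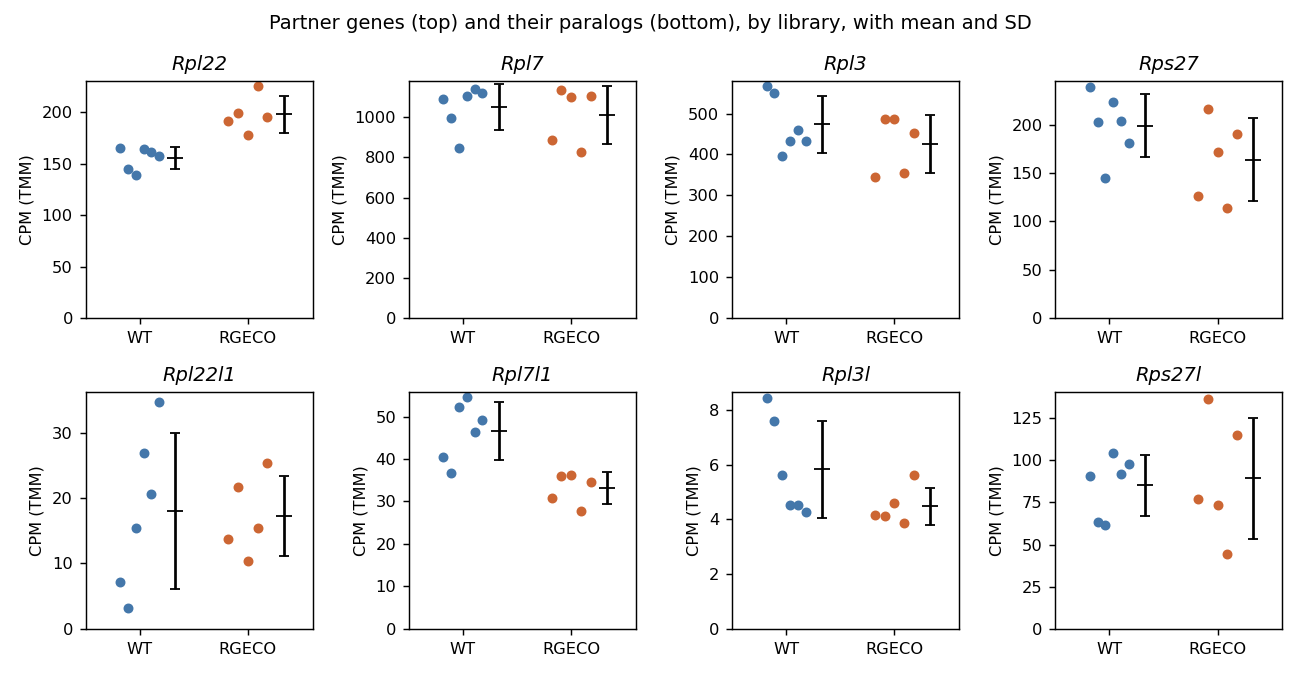
CPM (TMM-scaled) of 4 partner genes in the top panels and their paralogs below, with 1 point per library in order of replicate and the mean and SD of each line (6 WT, 5 RGECO) as black bars. Rpl22 stands higher in all 5 RGECO libraries and Rpl7l1 lower, while Rpl22l1, Rpl3l and Rps27l overlap between the lines.

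Over all genes tested 8.35% were called, 22.1% had an unadjusted p under 0.05 and 51.5% lay below 0. By subunit, the large subunit genes had 1 member higher and 1 lower of 49 (4.08%). Their median log2 fold change was -0.20, with 44 below 0. The small subunit genes had 0 of 34 called in edgeR, with a median of -0.18, 28 below 0 and 3 at an unadjusted p under 0.05, all lower. DESeq2 called the same 2 members, Rpl22 and Rpl7l1, and none of the small subunit. By position in the ribosome, the 4 genes of the P stalk, which recruits elongation factors, had 0 called, 0 at an unadjusted p under 0.05 and a median of -0.30. Rplp0, its base, was at 2645 ± 236 TPM in WT and 2445 ± 468 in RGECO. Rpl5 and Rpl11, which carry 5S rRNA and can bind Mdm2, had 0 called, 0 at an unadjusted p under 0.05 and a median of 0.01.

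The 9 genes of the exit tunnel and its rim had 1 called (11.1%, beside 8.35% of all genes) and a median of -0.12. That 1 was Rpl22, the same call as among the large subunit genes and the partners. The 14 genes of the 40S head had 0 called, 1 at an unadjusted p under 0.05 and a median of -0.25, and the 17 of its body and platform 0, 2 and -0.17. Rpsa, a protein of the 40S that also has a laminin receptor form, was lower without passing the test (log2 fold change -0.40 ± 0.14, adjusted p = 0.0945 in edgeR), at 2359 ± 219 TPM in WT and 1871 ± 223 in RGECO. It was named after its values were seen. Of the ribosomal proteins outside the name rule, Fau, which is made as a fusion with a ubiquitin-like protein, had a log2 fold change of -0.22. Rpl36al, a copy of Rpl36a, had -0.19 and Rack1, a scaffold on the 40S head, -0.21. None of these 3 passed in edgeR or DESeq2, and 0 had an unadjusted p under 0.05 (adjusted p = 0.547, 0.563 and 0.445 in edgeR's quasi-likelihood test).

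Much of the variation of these genes lay between libraries of the same line. When each member's log2 CPM was taken relative to its own mean over the 11 libraries, the median over members was 0.38 in WT replicate 1 and 0.39 in WT replicate 2. In WT replicates 3 to 6 it was -0.06, 0.02, -0.00 and -0.19. In RGECO replicates 1, 2, 3, 5 and 6 it was -0.32, 0.13, -0.06, -0.13 and -0.07. WT replicates 1 and 2 stood above the rest, RGECO replicate 1 stood lowest, and the other libraries of the lines overlapped.

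Of the 83 members, 55 had their highest CPM in WT replicate 1 or 2 (23 and 32), and 31 had their lowest in RGECO replicate 1. RGECO replicate 5 held the lowest value of 24 members and the highest of 12, and its deviations had an SD of 0.436 over members, the widest of the 11 libraries. In that library Rpl37 and Rpl26 stood far below their means and Rps14 far above. Leaving out each library in turn gave members' medians between -0.25 and -0.11, all below 0.

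**Figure D4:**
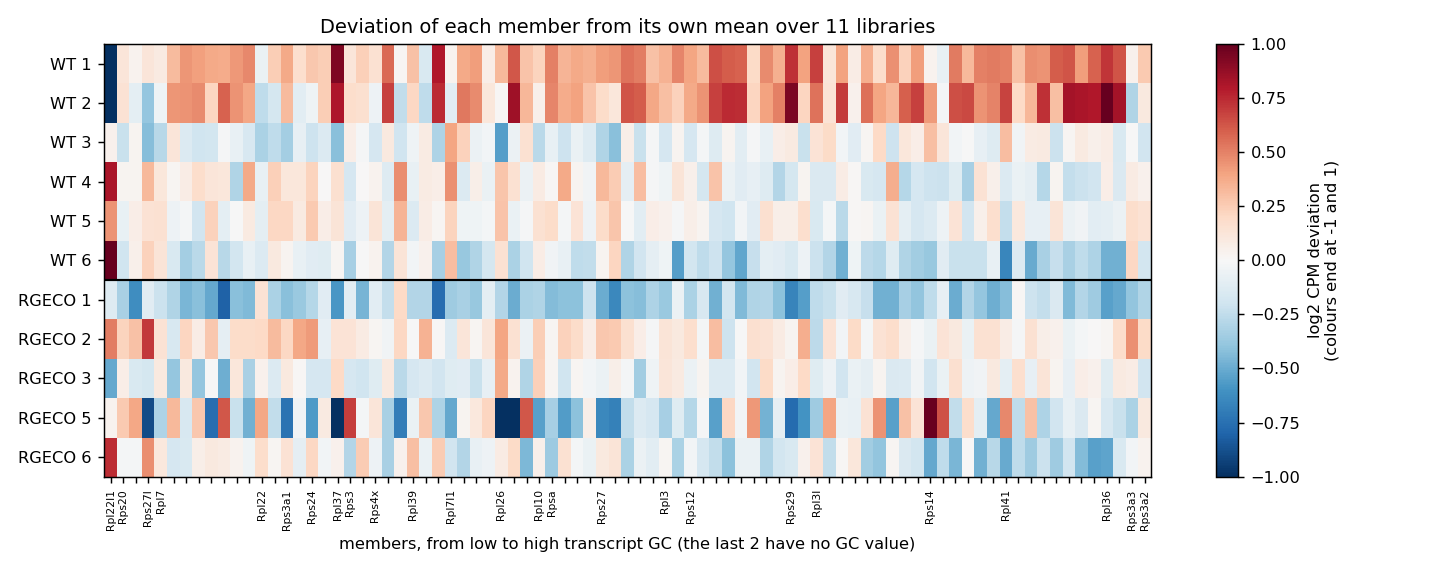
Log2 CPM of each tested member relative to its own mean over the 11 libraries (columns, from low to high transcript GC, most of those named in the text labelled; rows are libraries, the line divides WT from RGECO; red is above and blue below the mean, colours end at -1 and 1). WT replicates 1 and 2 are red across most members except Rpl22l1, RGECO replicate 1 is blue, and RGECO replicate 5 holds both colours side by side.

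The relation of these deviations to the base composition of the transcripts differed between libraries. Over 81 members with a transcript in the GENCODE annotation of GRCm38, Spearman's rho of deviation and GC content was 0.39, 0.49 and 0.36 in WT replicates 1 to 3 and -0.50, -0.29 and -0.48 in WT replicates 4 to 6. In RGECO it was -0.01, -0.34, 0.25, 0.08 and -0.59 in replicates 1, 2, 3, 5 and 6. Signs of both kinds thus occurred in both lines. The rho of fold change and GC over the same 81 members was -0.28, and that of fold change and transcript length 0.08. Members in 1 library share its depth and preparation, so these values describe the libraries.

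Mitochondrially encoded transcripts took 0.754%, 0.204%, 0.530%, 1.68%, 1.16% and 1.59% of counts in WT replicates 1 to 6 and 0.509%, 0.726%, 0.625%, 0.298% and 1.33% in the RGECO libraries. WT replicate 2 was lowest and WT replicates 4 and 6 highest. Malat1, a nuclear RNA, took 0.156% of counts in WT replicate 2 and 0.430% to 0.898% in the other WT libraries, against 0.180% to 0.645% in RGECO. Rows named as processed copies of members numbered 322, of which 209 had a count, and their counts came to 5.02% to 6.56% of the members' counts per library. With those counts added to the parent genes the same 2 members were called. The part of GC content, of mitochondrial and nuclear RNA or of single libraries in the members' lower median was not tested, apart from the values without each library given above.

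**Figure D5:**
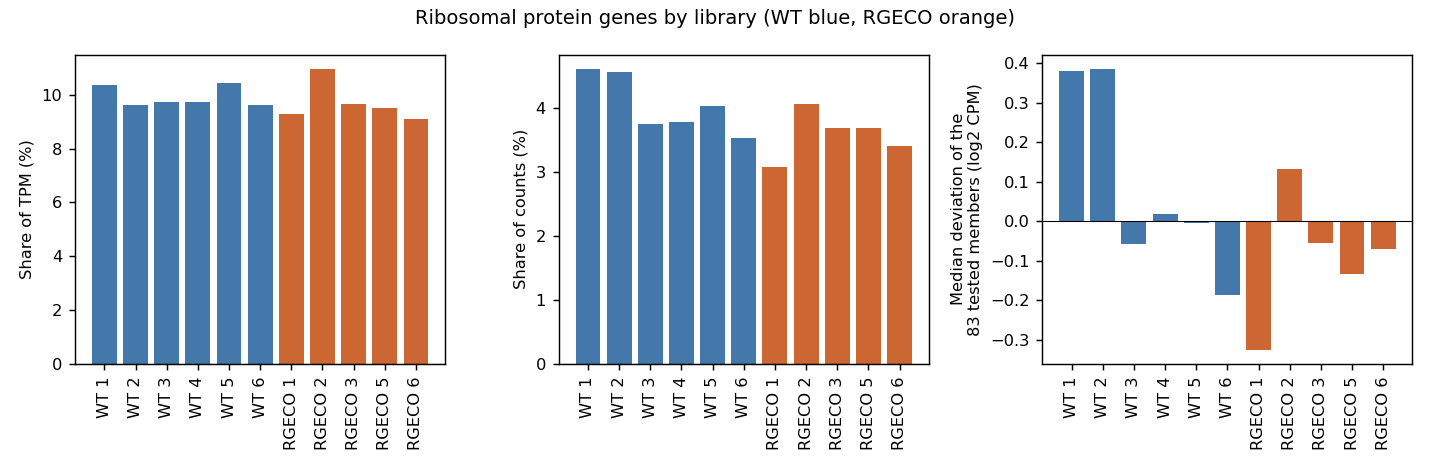
Ribosomal protein genes by library, WT in blue and RGECO in orange: share of all TPM (left, percent), share of all estimated counts (middle, percent) and median deviation of the 83 tested members from their own means (right, log2 CPM). The TPM share lies between 9.11% and 10.95% in every library, while the median deviation is 0.38 and 0.39 in WT replicates 1 and 2 and -0.32 in RGECO replicate 1.

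Genes that work with the ribosome were read from the same test, in which 8.35% of all genes passed. DESeq2, given beside it, called more of all genes in both directions, so 8.35% is not the background of its calls. The 78 mitochondrial ribosomal protein genes, which build the separate ribosome of that organelle, were all tested, with 0 called in edgeR, a median log2 fold change of -0.00, and 6 at an unadjusted p under 0.05 (5 lower, 1 higher). DESeq2 called 2 of them, both lower. Translation factors and other TOP transcripts had 0 of 19 called and a median of 0.01, with 3 at an unadjusted p under 0.05 and 2 lower in DESeq2. Eef1a1, the main elongation factor that delivers aminoacyl-tRNA, was at 10306 ± 1249 CPM in WT and 10059 ± 1140 in RGECO (log2 fold change -0.04 ± 0.12, adjusted p = 0.909). Eef1a2, the form that replaces it in mature muscle and neurons, was at 9.89 ± 2.23 and 15.6 ± 4.48 CPM, a difference of 0.66 ± 0.21 that did not pass in edgeR (adjusted p = 0.0686) and passed in DESeq2 (0.0279) and in edgeR without WT replicate 2 (0.0479).

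Ribosome assembly factors had 1 of 34 higher and 2 lower, so 8.82% were called, close to the 8.35% of all genes. Their median log2 fold change was -0.28 and 32 lay below 0, where 51.5% of all genes did. At an unadjusted p under 0.05 there were 14 (13 lower), against 2941 of all 13318 genes (1649 lower). DESeq2 called 1 assembly factor higher and 6 lower, and it also called more of all genes than edgeR did. Tsr1, which acts in maturation of the 40S subunit, fell from 56.8 ± 4.03 to 34.1 ± 2.38 CPM (log2 fold change -0.74 ± 0.10, adjusted p = 0.00033). Nop56, a core protein of the box C/D snoRNPs that methylate rRNA, fell from 31.9 ± 6.57 to 18.1 ± 2.44 CPM (-0.82 ± 0.17, adjusted p = 0.0056). Sbds, which releases an anti-association factor from new 60S subunits, rose from 51.9 ± 6.47 to 70.3 ± 11.7 CPM (0.44 ± 0.13, adjusted p = 0.0475), a call that was lost in 9 of the 11 fits that left out a library, with adjusted p between 0.0509 and 0.111.

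Of 11 genes of the RNA polymerase I machinery, which transcribes rRNA, 1 was lower: Taf1a, a subunit of its promoter factor, fell from 7.45 ± 1.25 to 3.77 ± 1.17 CPM (-0.997 ± 0.242, adjusted p = 0.0174, and 0.0535 without RGECO replicate 2). DESeq2 called 1 gene of this list higher and 1 lower. Of 7 genes of ribosomal protein chaperones 1 was lower: Heatr3, which brings Rpl5 and Rpl11 into the nucleus, fell from 27.4 ± 5.61 to 13.9 ± 2.74 CPM (-0.98 ± 0.18, adjusted p = 0.0033). DESeq2 called 1 chaperone gene lower. Of 18 tested regulators of TOP mRNAs and mTORC1 signalling 1 was lower: Myc, a transcription factor for ribosome genes, fell from 76.4 ± 20.0 to 44.0 ± 3.12 CPM (-0.80 ± 0.16, adjusted p = 0.0059). DESeq2 called 2 of these regulators lower. In edgeR 9.09% of the polymerase I list, 14.3% of the chaperones and 5.56% of the regulators were called, each by 1 gene, beside 8.35% of all genes. The adjusted p-values given for these lists are, unless named otherwise, from edgeR's quasi-likelihood test. On log2(TPM + 1) in limma the calls of Taf1a and Heatr3 were lost (adjusted p = 0.102 and 0.144). On that scale 1 assembly factor was called higher and 2 lower, but 0 of the 34 without a filter, so Tsr1, Nop56 and Sbds were not called there. In TPM the lines overlapped for Nop56, at 29.1 to 67.2 in WT and 11.3 to 44.6 in RGECO.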

How the data were processed

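Expression was taken from 2 gene-level tables that the authors deposited, for estimated counts and for TPM, both Salmon output merged over samples, per the file headers and names. The submitters' processing notes name Salmon, STAR, bedtools 2.25.0 and BWA 0.7.12-r1039 as tools, and GRCm39, mm10 and hg19 as builds. What each did, the annotation and the strandedness are not given in the sources used. How well reads were split between a gene and an antisense partner, or a member and a processed copy, is therefore uncertain.

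The deposited estimated counts were rounded and tested on 11 of 12 libraries (at least 1000000 counts each) with edgeR 4.0.16 in R 4.3.3: filterByExpr, TMM, glmQLFit with robust dispersions, glmQLFTest, Benjamini-Hochberg adjustment over 13318 genes, threshold 0.05. The common coefficient of variation between libraries was 25.2%. DESeq2 1.42.0 and limma 3.58.1, on log2 of the deposited TPM plus 1 or 0.1, were alternatives, as were no filter, all 12 libraries, a replicate block, pseudogene counts added and each library left out in turn. Shares of TPM and of paralog pairs are descriptions without a test. A floor of 3 counts covers counting error only. The smallest chi-square per gene over 25 pairs of libraries within a line was 7.23, so none was treated as a duplicate. The code was tested on simulated data with 200 changed genes. It recovered 1.5% of them at a log2 change of 0.5, 66.5% at 1 and 87.5% at 2. Of the calls at a change of 1, 6.34% were false. A change of 0.5 was thus rarely called there. In the data 1112 genes were called, more than the 200 simulated as changed, so this recovery need not carry over to the members.

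The members and gene lists were chosen with earlier results of these data known. Named genes are every paralog and its partner, the 5 members of highest and lowest TPM, the 4 lowest and highest fold changes, members past the threshold, ribosomal proteins outside the name rule, both eEF1A genes and up to 4 called genes per related list. Some genes that this rule takes are not reported here.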

Additional observations from a re-analysis of the deposited data

Results flagged for a closer look

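Among 72 groups of 5 or 6 libraries examined for the named genes and summed shares, 3 held a library far from the others of its line, and chance gives about 1 in 20. Rps14 stood at 1588 CPM in RGECO replicate 5, where the nearest RGECO library was at 765. Rpl36al stood at 35.0 CPM in RGECO replicate 1, where the nearest was at 59.4. Heatr3 stood at 9.14 CPM in RGECO replicate 2, where the nearest was at 14.4. Without RGECO replicate 5 the log2 fold change of Rps14 was -0.28 in place of 0.06, and neither value passed the threshold (adjusted p = 0.334 and 0.920 in edgeR).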

How the results depend on the processing

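The count of called members was 2 in the reported fit, with DESeq2 and with pseudogene counts added. It was 1 without a filter (0 higher, Rpl7l1 lower) and 0 (0 higher, 0 lower) with all 12 libraries, on log2(TPM + 1), on log2(TPM + 0.1), on log2(TPM + 1) without a filter and with the replicate block. Leaving out each library gave 0 to 2 (0 to 1 higher, 0 to 1 lower), and 785 to 1140 calls over all genes. Over all genes, DESeq2 called 1674 (753 higher, 921 lower), log2(TPM + 1) 605 (344 and 261), log2(TPM + 0.1) 587 (330 and 257) and log2(TPM + 1) without a filter 258 (140 and 118), against 1112.

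The members' median log2 fold change stayed below 0 in every alternative. It was -0.18 with DESeq2, -0.35 with all 12 libraries and -0.21 without a filter or with the block, and -0.04 on each TPM scale, where all genes shifted by 0.10. Relative to the median of all genes it was -0.13 on log2(TPM + 1) and -0.19 on counts. With single libraries left out it ran from -0.25 to -0.11. The ratio of member shares was 0.979 on TPM (0.947 to 0.994 on TPM with libraries left out) and moved to 0.886 on counts, and the difference of the Rpl7l1 share moved from -0.157 to -1.11 percentage points on counts. The cause was not tested. Shares with libraries left out ran from -0.318 to -0.0251 for Rpl7l1, -0.210 to -0.0300 for Rpl3l, -4.05 to 2.39 for Rpl22l1 and 2.37 to 4.26 points for Rps27l.

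The replicate numbers did not pair the libraries. Same-numbered libraries correlated at -0.01, -0.15, 0.01, -0.15 and 0.36, and 1 of 5 WT libraries matched its own number best. The replicate block called 777 genes in all, with Rpl22 at 0.36 (adjusted p = 0.0694), Rpl7l1 at -0.44 (0.1001), Taf1a at -1.01 (0.0684) and Sbds at 0.39 (0.158).

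Directions that turned were all of genes not called. With all 12 libraries Rps14 was -0.16, Rps20 -0.054 and Rps3 -0.077. On log2(TPM + 1), with and without a filter, and on log2(TPM + 0.1), Rps3a2 was 0.065, Rps3a3 0.049, Rpl39 0.052, Rps4x 0.075, Rps24 0.0097 and Fau 0.037, and Rpl22l1 was 0.41 on the former and 0.44 on the latter. With the block Rpl22l1 was 0.34 and Rps14 -0.069. With single libraries left out Rpl22l1 ran from -0.27 to 0.25, Rps3a2 from -0.11 to 0.0026, Rps3a3 from -0.18 to 0.029, Rps27l from -0.12 to 0.24, Rpl7 from -0.098 to 0.0074, Rpl10 from -0.17 to 0.016, Rps14 from -0.28 to 0.20, Rps3 from -0.066 to 0.23 and Eef1a1 from -0.075 to 0.020.

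All but 3 tested members averaged above 100 TPM, and the intervals of 4 members reached past 2-fold. Rpl22l1 was among both the 3 and the 4. What set the width of the intervals was not tested.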
